A study of Mus musculus with 6 samples.

Results

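The interferon-inducible GTPases described here are 10 mouse genes, found by their symbols in the deposited gene table, which lists 26428 genes in all. They are Irgm1, Igtp, Ifi47, Tgtp1 and Tgtp2 of the immunity-related GTPase (IRG) family and Gbp2, Gbp3, Gbp4, Gbp5 and Gbp6 of the guanylate-binding protein (GBP) family. All 10 passed the expression filter on the deposited counts and were tested, as were 14797 genes of the table. With those counts divided by 4, to the scale of read pairs, 9 of the 10 and 11805 genes passed. Gbp5 did not. RNA-seq was done on alveolar macrophages, which patrol the air spaces, taken from lungs of control mice and of mice lacking Rack1 in myeloid cells. The genotype is labelled Rack1F/- in the 3 control libraries and Rack1{delta}Mye in the 3 knockout libraries. The Cre driver, the age, the sex and any treatment of the mice are not given in the sources used here, nor is whether each library is a separate animal. P-values therefore measure only the spread between these samples, which may be technical.

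Both families are switched on by interferons. Binding of interferons to their receptors activates transcription factors through Janus kinases. Interferon-gamma acts mainly through GAS elements in the DNA of its targets and type I interferons mainly through ISRE elements. The GTPases are large enzymes that bind and hydrolyse GTP and act on membranes inside the cell. IRG effectors load onto the vacuoles of intracellular parasites and bacteria and break them, while the IRGM proteins, among them Irgm1 and the product of Igtp, hold the effectors off the cell's own membranes. GBPs coat vacuoles and bacteria and promote inflammasome activation and lytic cell death. In macrophages these proteins are known for restricting Toxoplasma, Chlamydia and mycobacteria.

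The promoter stretches are shown for the ISRE and GAS elements described above. The members were chosen as interferon-inducible genes, so such elements are no independent support for the grouping. Promoter sequences of RefSeq (GRCm38.p6, 250 bases before to 50 bases after each start) were held for 8 of the 10 genes, and Gbp4 and Gbp6 had no entry. Each was searched on both strands for the ISRE core, which is GAAA, any 2 bases and GAAA again, and for the GAS motif TTCNNNGAA. The 8 genes had 9 promoter entries. The ISRE core was present in 7 of the 8 genes and in 7 of the 9 entries (77.8%), against 3.44% of all 32851 promoters in the table. Capitals mark the core as it lies on the gene's own strand, so a core on the other strand begins and ends with TTTC. Each line gives 60 bases, 5′ to 3′.
Irgm1: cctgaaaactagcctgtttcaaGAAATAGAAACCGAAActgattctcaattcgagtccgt
Igtp: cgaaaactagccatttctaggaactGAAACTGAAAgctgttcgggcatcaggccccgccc
Tgtp1: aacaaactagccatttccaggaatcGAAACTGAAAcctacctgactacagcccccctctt
Tgtp2: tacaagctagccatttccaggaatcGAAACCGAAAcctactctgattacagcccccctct
Gbp2: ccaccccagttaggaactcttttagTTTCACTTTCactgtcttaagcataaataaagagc
Gbp3: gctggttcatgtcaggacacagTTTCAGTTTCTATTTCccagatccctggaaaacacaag
Gbp5: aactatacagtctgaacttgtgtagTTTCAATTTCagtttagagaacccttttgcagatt
The stretches lie at chr11:48871413-48871472 on the minus strand for Irgm1, chr11:58199497-58199556 on the plus strand for Igtp, and chr11:48992289-48992348 and chr11:49064248-49064307 on the minus strand for Tgtp1 and Tgtp2. Those of Gbp2, Gbp3 and Gbp5 lie on the plus strand at chr3:142620579-142620638, chr3:142559977-142560036 and chr3:142496744-142496803.

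The 4 IRG stretches carry the core on the gene strand and the 3 GBP stretches carry it on the opposite strand. Irgm1 and Gbp3 each hold 2 overlapping copies. Counted from the RefSeq start of transcription, the core began at -30 and -24 in Irgm1, -34 in Igtp, -77 in Tgtp1, -70 in Tgtp2, -59 in Gbp2, -45 and -39 in Gbp3, and -165 in Gbp5. The stretches of Irgm1, Tgtp1 and Gbp5 lie inside the gene spans given below from the deposited table, whose starts differ from the RefSeq starts. The Ifi47 window held neither the ISRE core nor the GAS motif. GAS was found in 4 of the 8 genes, Igtp, Tgtp1, Tgtp2 and Gbp5. By entry it was in 4 of 9 (44.4%), against 8.30% of all promoters. In Igtp, Tgtp1 and Tgtp2 it lies just upstream of the ISRE core, within the printed lower-case letters. A match describes letters in the window and is not a measured binding site.

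As a check of the labels, Rack1 stood lower in the knockout libraries, at 80.6 ± 3.14 counts-per-million (CPM, SD, n = 3) in control and 37.0 ± 2.45 in knockout. Estimated counts summed to between 51894849 and 66163430 units a library, and a read pair was worth about 4 units. The 10 genes with the largest counts took 31.2% to 40.1% of a control library and 40.0% to 48.5% of a knockout library. Knockout replicate 1 had 0.741 CPM of Xist and 16.0 CPM of the Y-linked Eif2s3y, against 10.4 to 70.6 CPM and 0.357 to 2.68 CPM elsewhere. Knockout replicate 2 held the next highest Y-linked values, 2.68 CPM of Eif2s3y and 3.16 CPM of Ddx3y, where the controls and knockout replicate 3 were at or under 0.681 and 0.532 CPM. Markers fitting the labelled cell type were abundant, with 12 alveolar macrophage genes summing to 80716 to 158115 CPM in control and 92404 to 163778 CPM in knockout. Chil3 alone made up 71008 to 142869 CPM of that sum in control. Of the 12, Marco and Car4 rose and Siglecf, Fabp1 and Krt79 fell by edgeR, where 5.93% of all tested genes rose and 6.01% fell. Under library totals 2 rose and 5 fell, against 1.96% and 6.31%.

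All 10 GTPase genes had higher CPM in each knockout library than in any control library, where 15.3% of all tested genes stood apart in that direction and 15.9% in the other. For Gbp5 this separation rests on the scaling, since control replicate 1 and knockout replicate 1 both held 12 units. By edgeR's quasi-likelihood test at an adjusted p under 0.05, 7 of the 10 rose in knockout, against 5.93% of the 14797 tested genes. With the near-identical Tgtp1 and Tgtp2 summed into 1 row, 6 of 9 rose. None fell by edgeR, against 6.01% of all tested genes, and all 10 fold changes were positive. DESeq2 also called 7 higher and 0 lower, against 7.66% and 8.02% of all genes. The 5 IRG genes all rose, by 1.75- to 2.14-fold, and of the 5 GBP genes Gbp4 and Gbp6 rose. The median log2 fold change of the 10 genes was 1.06, beside 0.01 over all tested genes.

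The size of this result depends on the scaling between libraries. CPM here used TMM-scaled library sizes, and scaling to library totals instead moved the median of all tested genes from 0.01 to -0.31. Under library totals the 10 genes kept positive log2 fold changes with a median of 0.73, and 1 of them, Gbp6, passed the test (1.22, edgeR adjusted p = 0.0464), against 1.96% of all genes, and none fell, against 6.31%. Without knockout replicate 2, which was the highest library for 8 of the 10 genes, 3 passed (Irgm1, Ifi47 and Tgtp2), against 3.67% of all genes, and none fell, against 3.05%. In bulk samples, fewer cells of a type and less RNA per cell cannot be told apart, nor can more cells and more RNA per cell.

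**Figure D1:**
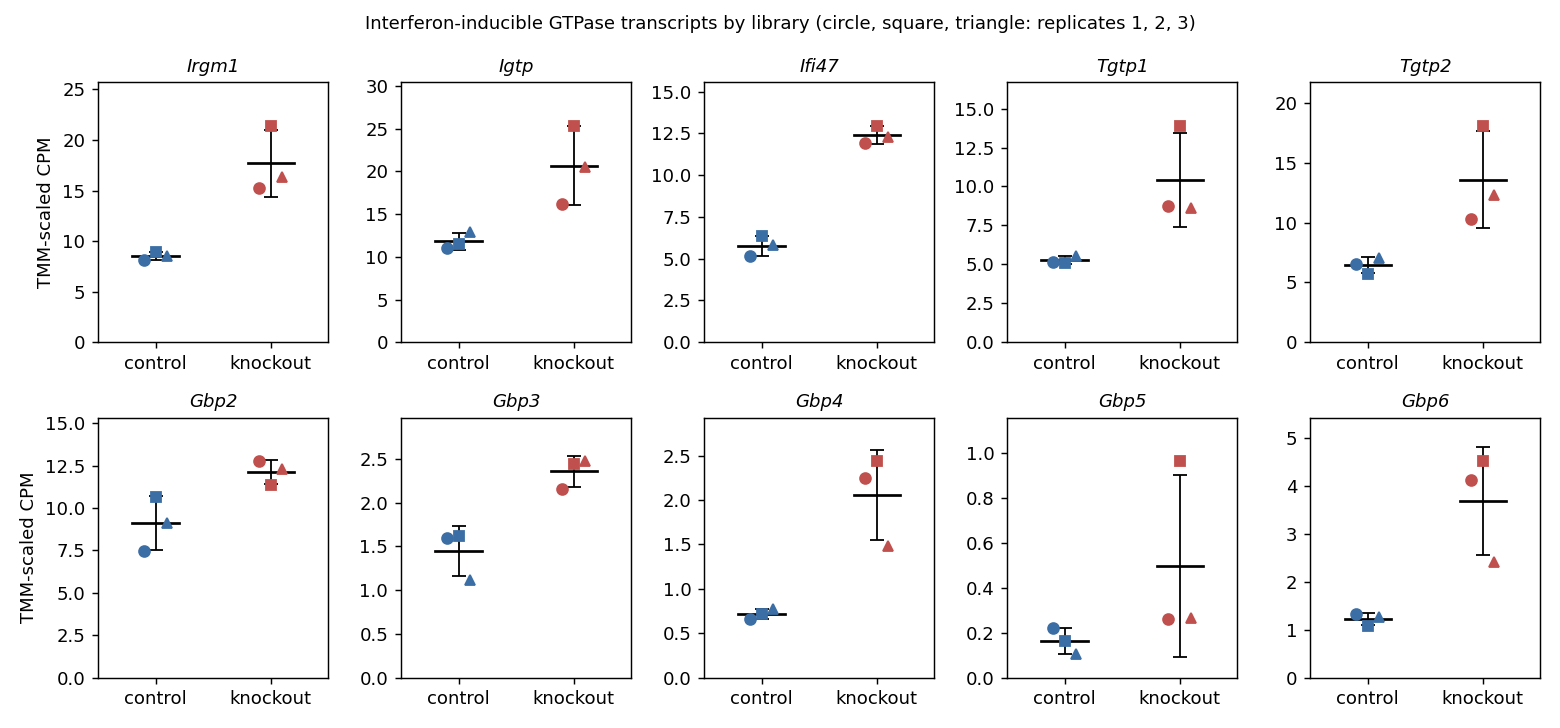
CPM (TMM-scaled) of each of the 10 GTPase genes in the 3 control and 3 knockout libraries, with a panel and an axis of its own for each gene; points are libraries, thick lines are group means and error bars are SD. Every knockout point lies above every control point, and knockout replicate 2 is the highest library in 8 panels.

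**Figure D2:**
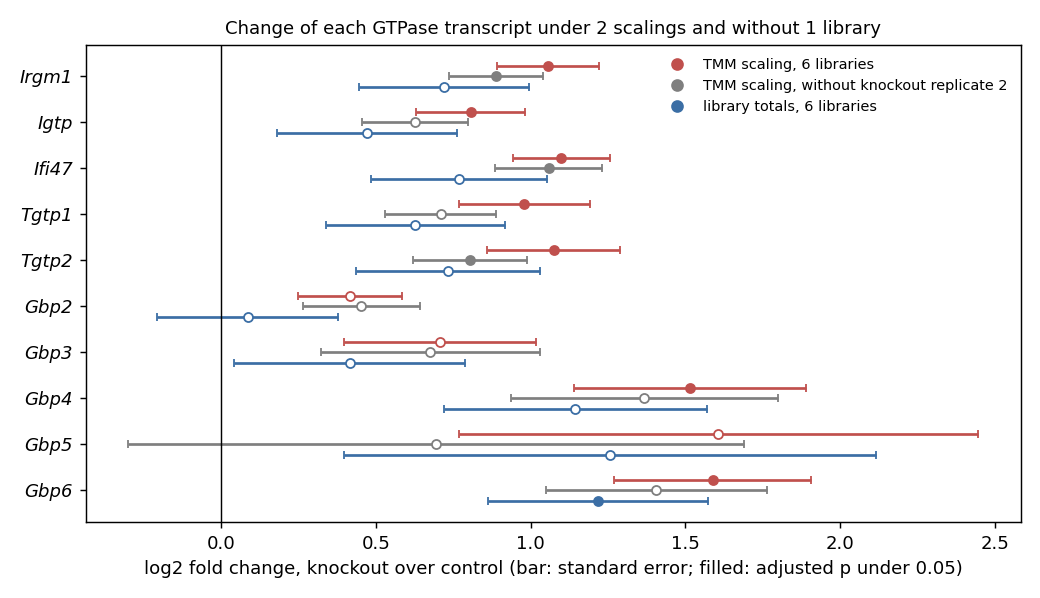
Log2 fold change, knockout over control, of each GTPase gene with standard errors. The series are TMM scaling of all libraries, TMM scaling without knockout replicate 2 (grey) and scaling to library totals. Filled points passed at an adjusted p under 0.05. All points lie above 0, and those under library totals lie lower than those under TMM scaling of all libraries.

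Among the IRG genes, Irgm1 (ENSMUSG00000046879, chr11:48861968-48871683, minus strand), the regulator that keeps effectors off host membranes, stood at 8.13, 8.88 and 8.49 CPM in control replicates 1, 2 and 3. In knockout it stood at 15.3, 21.4 and 16.4 CPM. The lowest knockout library was well above the highest control library. Irgm1 rose 2.08-fold (log2 1.06, SE 0.16, edgeR adjusted p = 0.00265), from 8.50 ± 0.379 to 17.7 ± 3.28 CPM (SD, n = 3).

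Igtp (ENSMUSG00000078853, chr11:58199556-58207591, plus strand), also known as Irgm3, is another regulator of the family and has a role in resistance to Toxoplasma. Its CPM was 11.01, 11.5 and 12.9 in control and 16.2, 25.3 and 20.5 in knockout. It had the smallest change of the 5 IRG genes, at 1.75-fold (log2 0.81, SE 0.18, edgeR adjusted p = 0.0148). The groups stood apart on CPM but overlapped on the deposited FPKM, where control replicate 3 reached 7.86 and knockout replicate 1 was at 6.15. Igtp overlaps Irgm2 by 7974 bases, and 5.67% of the 100-base windows of its transcript are also found in Irgm2, so their reads may be divided between the genes. Irgm2 itself was at 0.880 ± 0.219 CPM in control and 1.79 ± 0.771 in knockout (edgeR adjusted p = 0.164).

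Ifi47 (chr11:49076587-49096974, plus strand), also known as Irgd, is an effector that localises to pathogen vacuoles. Ifi47 was at 5.15, 6.35 and 5.83 CPM in control and at 11.9, 13.0 and 12.3 CPM in knockout. The groups were far apart for the spread within each. It had the largest change among the IRG genes, at 2.14-fold (log2 1.10, SE 0.16, edgeR adjusted p = 0.00168), and it passed in each of the 6 fits that left out 1 library.

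Tgtp1 and Tgtp2 encode near-identical copies of the effector Irgb6. Their transcripts are 99.33% identical, with 6 mismatches and 13 gap positions over their aligned length, and 80.0% of the 100-base windows of Tgtp1 occur in Tgtp2. Reads from most of either transcript could come from the other, so the split between the copies is uncertain and their sum is given first. The sum was 11.7, 10.8 and 12.6 CPM in control and 19.0, 32.0 and 20.99 CPM in knockout. Knockout replicate 2 stood above the other knockout libraries. The sum rose 2.05-fold (log2 1.03, SE 0.20, edgeR adjusted p = 0.00769), from 11.7 ± 0.911 to 24.0 ± 6.99 CPM (SD, n = 3).

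Taken singly, Tgtp1 (chr11:48985327-48994172, minus strand) was at 5.17, 5.09 and 5.56 CPM in control and 8.74, 13.9 and 8.64 CPM in knockout. Tgtp2 (chr11:49057194-49064206, minus strand) was at 6.57, 5.71 and 7.06 CPM in control and 10.3, 18.1 and 12.3 CPM in knockout. Tgtp2 made up 52.9% to 58.8% of the sum in every library. As counted, each rose, Tgtp1 by 0.98 and Tgtp2 by 1.07 on the log2 scale (edgeR adjusted p = 0.0135 and 0.00960), but with most reads shared these values do not show that both copies moved.

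Among the GBP genes, Gbp2 (chr3:142620602-142638008, plus strand), a prenylated GBP that binds vacuoles and bacteria, was at 7.48, 10.7 and 9.13 CPM in control and 12.8, 11.4 and 12.3 CPM in knockout. Its groups did not overlap, but the gap between them was small, and the log2 fold change of 0.42 (SE 0.17) did not pass (edgeR adjusted p = 0.145). Gbp3 (chr3:142560026-142573209, plus strand) was at 1.60, 1.62 and 1.12 CPM in control and 2.16, 2.44 and 2.48 CPM in knockout. The log2 fold change of Gbp3 was 0.71 (SE 0.31) and did not pass either (edgeR adjusted p = 0.182).

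Gbp4 and Gbp6 are neighbours on chromosome 5, at chr5:105115767-105139586 and chr5:105270702-105293696, both on the minus strand. Gbp4 was at 0.660, 0.713 and 0.770 CPM in control and 2.24, 2.44 and 1.48 CPM in knockout. It rose 2.86-fold (log2 1.52, SE 0.37, edgeR adjusted p = 0.0250), with knockout replicate 3 the lowest of its group. Gbp6 was at 1.32, 1.07 and 1.27 CPM in control and 4.12, 4.51 and 2.41 CPM in knockout. It rose 3.01-fold (log2 1.59, SE 0.32, edgeR adjusted p = 0.00998), the largest change among the members that passed. Of the 100-base windows of Gbp6, 82.9% also occur in Gm43302, which stood at 0.500 ± 0.164 CPM in control and 0.546 ± 0.239 in knockout (edgeR adjusted p = 0.939), so the split between these genes is uncertain.

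Gbp5 (chr3:142493978-142522344, plus strand), which in mice promotes inflammasome assembly, was close to the limit of detection. It was counted at 12, 10 and 9 units in control and 12, 40 and 16 units in knockout, where 12 units are about 3 read pairs. Most of the difference lay in knockout replicate 2, and the log2 fold change of 1.61 (SE 0.84) did not pass (edgeR adjusted p = 0.266). Without that library it was 0.69. The control libraries were at or under the limit of 3 read pairs, so a change of this gene was not measurable at this depth.

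Leaving out 1 library at a time, Irgm1, Ifi47 and Tgtp2 passed in all 6 fits, Gbp6 in 5, Igtp and Tgtp1 in 3 each and Gbp4 in 1. The adjusted p without knockout replicate 2 was 0.0639 for Igtp, 0.0504 for Tgtp1, 0.0977 for Gbp4 and 0.0519 for Gbp6. Without knockout replicate 1, the library with the highest Y-linked values, 6 members rose, against 631 of 15615 tested genes. The part of the Y-linked difference in the GTPase values was not tested. Each library's deviation from the control mean, as the median over the 10 genes on a log2 scale with a prior count of 2, was 0.70 in knockout replicate 1, 1.36 in replicate 2 and 0.87 in replicate 3. The control libraries lay between -0.05 and 0.04. Each gene was centred on the mean of these same libraries, which holds their medians near 0. The widest control spread of a single gene was -0.46 to 0.41, for Gbp5.

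Levels were compared between genes on FPKM, which is per length. Igtp was the highest of the 10 in control at 6.26 ± 1.48 FPKM (SD, n = 3), with 32.8% of their summed FPKM. It was followed by Gbp2 at 3.87 ± 1.02, Ifi47 at 2.49 ± 0.538, Tgtp2 at 2.34 ± 0.531, Tgtp1 at 1.75 ± 0.346 and Irgm1 at 1.56 ± 0.270. Summed, Tgtp1 and Tgtp2 were at 3.49, 3.71 and 5.09 FPKM in control, a range that overlapped that of Gbp2, at 2.69 to 4.47 FPKM. Neighbours from Gbp2 to Irgm1 overlapped in their control ranges across libraries. Within each control library, Gbp2 was the highest of these genes, Tgtp1 was next to last and Irgm1 last. Only Ifi47 and Tgtp2 changed places between control libraries. The remaining genes stood clearly lower and apart, with Gbp3 at 0.462, Gbp6 at 0.214, Gbp4 at 0.1001 and Gbp5 at 0.0236 FPKM. In knockout the mean FPKM of Igtp was 8.69, of Ifi47 4.25 and of Gbp2 4.11. The IRG genes carried 72.6% to 83.2% of the summed FPKM in each library. On FPKM, 5 of the 10 genes stood apart between groups (Irgm1, Ifi47, Gbp4, Gbp5 and Gbp6), against 5.08% of all tested genes that stood apart upward and 23.4% downward. Gbp5 is among them with the same 12 units in control replicate 1 and knockout replicate 1.

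**Figure D3:**
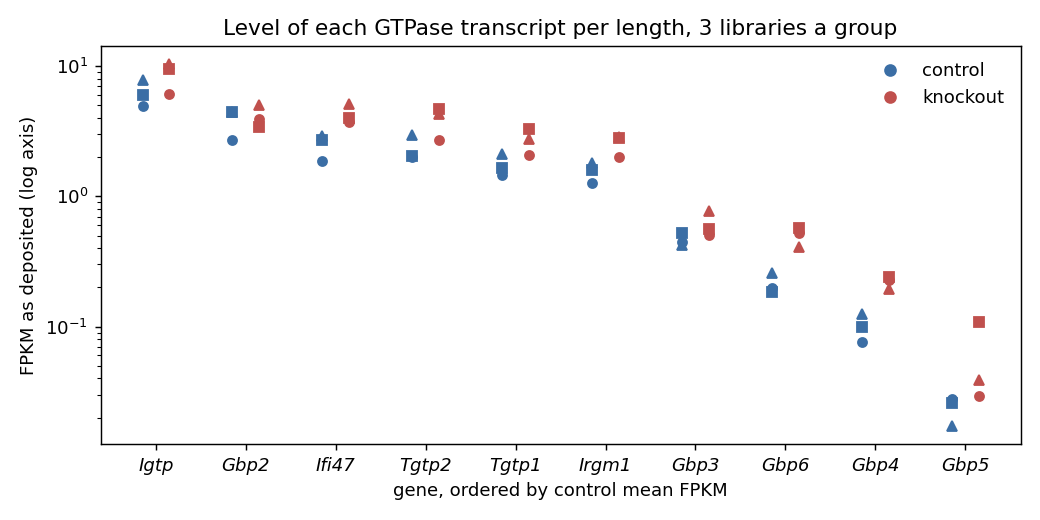
Deposited FPKM (log axis) of the 10 GTPase genes in each control and knockout library, ordered by control mean, where points are libraries. Igtp is highest at a control mean of 6.26 and Gbp5 lowest at 0.0236.

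Of 12 tested among 14 other interferon-inducible GTPase genes listed, including Irgm2, Gbp7, Gbp9, Mx1 and Mx2, 9 had positive log2 fold changes. Their median was 0.52. None rose and 1 fell by edgeR, against 5.93% and 6.01% of all tested genes. DESeq2 gave the same count. The gene that fell was Gbp8, from 5.40 ± 0.516 to 3.03 ± 0.356 CPM (log2 -0.83, SE 0.21, edgeR adjusted p = 0.0282). Under library totals Gbp8 also passed (log2 -1.13, edgeR adjusted p = 0.0422). It did not pass without knockout replicate 2 (0.0843). Of the fits that left out 1 library, only that without knockout replicate 3 called any gene of this list lower. Gbp7, a neighbour of Gbp3, was at 11.2 ± 1.39 and 10.2 ± 0.928 CPM (edgeR adjusted p = 0.674). Irgm2 and Gm5431 had log2 fold changes of 1.02 and 1.08, near those of the IRG members. They stood at only 0.880 and 0.533 CPM in control, with SE of 0.43 and 0.49, and did not pass. The difference between this list and the members was not tested.

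Genes of interferon signalling moved in both directions. Of 17 receptor and signalling genes, 3 rose and 2 fell by edgeR, against 5.93% and 6.01% of all tested genes. Ifngr1, the ligand-binding chain of the interferon-gamma receptor, was at 129, 122 and 114 CPM in control and at 53.3, 50.2 and 51.6 CPM in knockout. The groups were far apart, and Ifngr1 fell by 1.23 on the log2 scale (SE 0.11, edgeR adjusted p = 0.000115). Irf1, a transcription factor gene that drives GBP transcription, fell by 0.50 (edgeR adjusted p = 0.0441). Ifnar2, a chain of the type I receptor, rose by 0.64 (edgeR adjusted p = 0.00507), and Usp18, which dampens type I signalling, by 1.51 (edgeR adjusted p = 0.00781). Under library totals Usp18 and Ifngr1 passed, and without knockout replicate 2 Ifnar2, Usp18 and Ifngr1 did.

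Of 14 interferon and interferon-inducing cytokine genes listed, 6 were in the table and 4 were tested, with none called in either direction by edgeR or DESeq2. Ifng was listed at a mean of 0.0162 CPM in control and at 0 in knockout. The control value was 3 units, or 0.75 of a read pair, in control replicate 2 alone, so no change could be read. Ifnb1 was at 0.218 ± 0.185 and 0.748 ± 0.447 CPM (log2 1.75, edgeR adjusted p = 0.191). It was counted at 6, 7 and 37 units in control and 24, 19 and 76 units in knockout, where 12 units are about 3 read pairs.

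Interferon targets were read in a pair of lists, and the difference between them was not tested. Of 17 tested genes linked to interferon-gamma, Cd274, which encodes PD-L1, rose (log2 1.38, edgeR adjusted p = 0.000334), while the receptor gene Fcgr1 and the immunoproteasome gene Psmb9 fell, by 0.92 and 0.53 (edgeR adjusted p = 0.00167 and 0.0188). Over all tested genes 5.93% rose and 6.01% fell by edgeR. The median log2 fold change of the 17 was -0.05. DESeq2 called 1 of the 17 higher and 4 lower, against 7.66% and 8.02% of all genes. Under library totals 1 rose and 3 fell, against 1.96% and 6.31%. Without knockout replicate 2, 1 rose and 1 fell, against 3.67% and 3.05%. Of 24 genes linked to type I interferon, 12 rose and none fell by edgeR, against 5.93% and 6.01% of all tested genes. The median of the 24 was 1.27, and 13 rose by DESeq2, against 7.66% of all genes. Oas1g, an RNA-sensing oligoadenylate synthetase gene, was at 2.83, 2.48 and 3.11 CPM in control and 16.8, 40.9 and 22.9 CPM in knockout. Isg15, the ubiquitin-like modifier, went from 0.886 ± 0.189 to 3.40 ± 0.633 CPM (log2 1.93, edgeR adjusted p = 0.00371). Under library totals 4 of the 24 rose, against 1.96% of all genes. Without knockout replicate 2, which was the highest library for 23 of the 24, 7 rose, against 3.67%.

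**Figure D4:**
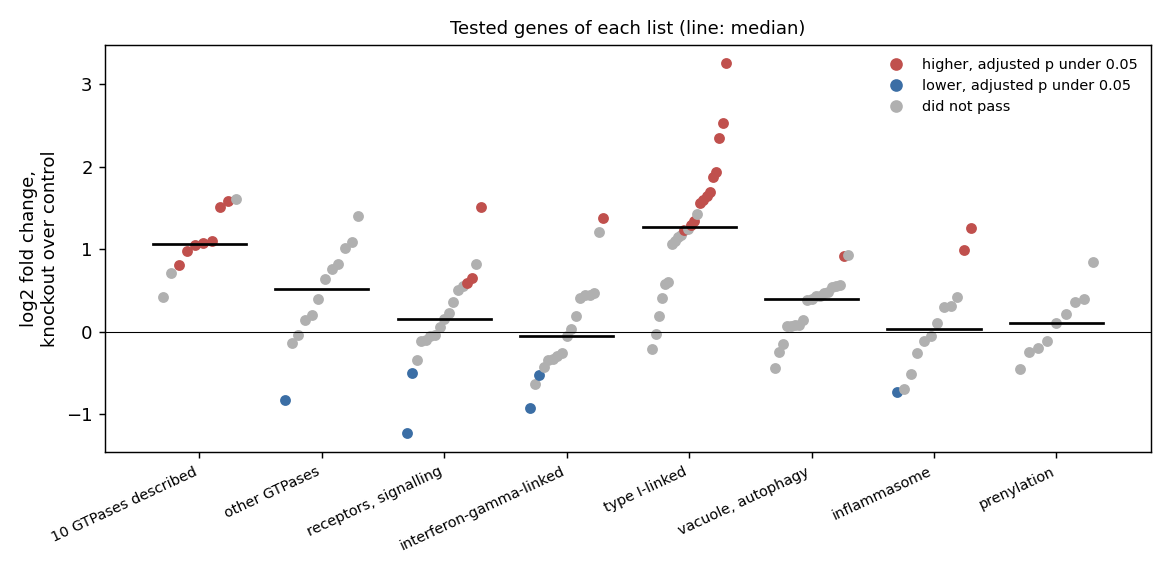
Log2 fold change, knockout over control, of the tested genes in each list, with a point for each gene, red or blue where it passed the test upward or downward and grey where it did not, and a line at the list's median. The members and the type I-linked genes lie mostly above 0, and the interferon-gamma-linked genes lie on both sides.

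Of 19 tested genes for vacuole targeting and autophagy, Gabarapl1, whose product is conjugated to autophagic membranes, rose from 34.3 ± 1.73 to 64.8 ± 5.79 CPM (log2 0.92, edgeR adjusted p = 0.00103). It did not pass under library totals (0.145). By edgeR 1 of the 19 rose and none fell, against 5.93% and 6.01% of all tested genes. DESeq2 called 5 higher and 1 lower, against 7.66% and 8.02%. Of 12 inflammasome partners, Ninj1, which ruptures the plasma membrane in lytic death, and Il1b rose by 1.25 and 0.99, and Casp1 fell by 0.73. These calls are by edgeR, where 5.93% of all tested genes rose and 6.01% fell. Il1b did not pass under library totals (edgeR adjusted p = 0.202) or without knockout replicate 2 (0.0564). None of 9 prenylation genes was called in either direction by edgeR or DESeq2.

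By position, 4 of the 10 GTPase genes lie within 1000 kb of Rack1 on chromosome 11. Their distances from Rack1 are 55.9 kb for Irgm1, 179.2 kb for Tgtp1, 251.1 kb for Tgtp2 and 270.5 kb for Ifi47. This window was chosen after the values were seen. Of the 14 other tested genes in that window, 1 rose (Trim7, log2 1.78, edgeR adjusted p = 0.0356, and 0.108 under library totals), none fell by edgeR, and their median log2 fold change was 0.04. Over all tested genes 5.93% rose and 6.01% fell. These 14 include 3 genes of the list of other GTPases, Gm5431 (log2 1.08, edgeR adjusted p = 0.195), 9930111J21Rik1 (0.14, 0.798) and 9930111J21Rik2 (-0.04, 0.938). Igtp lies 9.39 Mb away on the same chromosome, 3 members lie on chromosome 3 and 2 on chromosome 5. Of these 6 genes, Igtp, Gbp4 and Gbp6 rose.

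**Figure D5:**
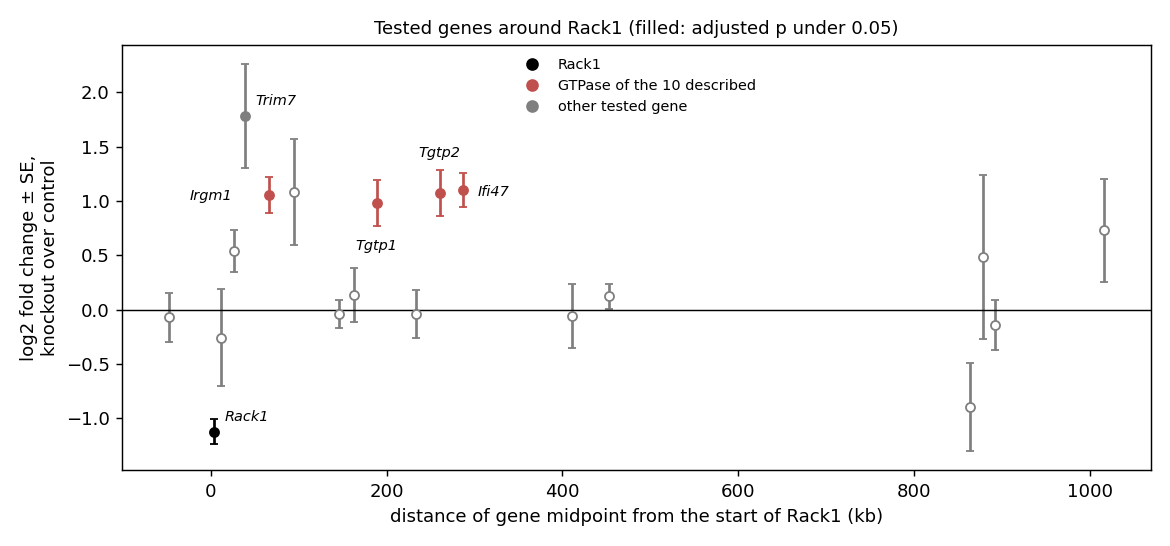
Log2 fold change with SE of the tested genes within 1000 kb of Rack1, against the distance in kb of each gene's midpoint from the start of Rack1; filled points passed the test. The 4 GTPase genes described lie near 1, and 3 of the grey points are further IRG-family genes, Gm5431 near 1 and 2 genes near 0.

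The summed CPM of 13 monocyte and interstitial macrophage markers was 177.9 to 272.2 in control and 284.3 to 447.4 in knockout. Of the 13 genes, 4 rose by edgeR, against 5.93% of all tested genes. Among the 4 were the complement genes C1qa, C1qb and C1qc. None of the 13 rose under library totals, against 1.96%. The 18 listed T and NK cell markers, a source of interferon-gamma, summed to 27.9 to 46.9 CPM and 36.2 to 53.8 CPM, with Cd3e, Cd8a, Gzmb, Prf1 and Ifng under 1 CPM in every library. Of 12 tested, 1 rose, against 5.93% of all tested genes. It was Ccl5 (log2 0.93, edgeR adjusted p = 0.0396), which did not pass under library totals (0.314) or without knockout replicate 2 (0.138). Neutrophil markers summed to 53.7 to 80.0 CPM and 113.6 to 124.1 CPM, with Ly6g, Camp and Ngp under 1 CPM. Of 8 tested, 1 rose and 3 fell by edgeR, against 5.93% and 6.01% of all tested genes. B cell, dendritic cell, epithelial and stromal lists summed to at most 118.0 CPM in any library. The part of these cells in the GTPase values was not tested.

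The genes most like the mean of the 10 members over the 6 libraries, among 7097 genes with a mean of at least 5 CPM outside the lists, were Sdc3, H2-T-ps, Ecm1, Nabp1 and Samd4b. Likeness was the root mean square distance on the log2 scale, at 0.105 for Sdc3 and H2-T-ps and 0.109, 0.126 and 0.129 for the others.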

How the data were processed

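Per the file headers, the deposited table gives each gene an estimated (expected) count and an FPKM in each library. The labels' protocols name TRIzol extraction and NEBNext Ultra library preparation. Cutadapt, FastQC, HISAT2, StringTie, DESeq2, edgeR and build GRCm38 are named, without versions or roles, per the submitters' processing notes. The sources used here do not give strand use in counting.

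All values were computed from that table. Expected counts, whole numbers as deposited, were treated as estimates: in every library more genes held 4 units than 3 or 5, and a read pair was taken as 4 units. Genes passing edgeR's expression filter were scaled by TMM and compared by its quasi-likelihood test without covariates, with Benjamini-Hochberg adjustment over 14797 genes and a threshold of 0.05. Standard errors were derived from the fold change and the F statistic. FPKM was used for levels between genes and, with limma, as an alternative. The 3-pair limit, 12 units, covers counting error only. Coordinates are those of the deposited table, on GRCm38, and shared windows used GENCODE M21 transcripts. Some list genes are counted but not reported by name here. Members and lists were chosen with earlier results of these data known. All members are named; from each list, up to 6 genes with the smallest p and the first 3 symbols could be named. Markers, Trim7, the neighbours of Rack1, overlap partners and sex-linked genes were named after their values were seen. Fits used edgeR 4.0.16, DESeq2 1.42.0 and limma 3.58.1 under R 4.3.3, and tables Python 3.11.15.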

Additional observations from a re-analysis of the deposited data

How the results depend on the processing

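The 10 members had positive log2 fold changes in all 148 member results under the alternatives, of which 119 kept their side of the threshold and 29 no longer passed. The 148 include the fit with Tgtp1 and Tgtp2 summed. That fit left the counts of the other members unchanged, so their results there could hardly move. The 119 include every result of Gbp2, Gbp3 and Gbp5, which passed in no setting. All 29 losses therefore fell on the 7 members that had passed. The count of members that rose was 7, and it was 1 under library totals and 3 to 7 without 1 library. It was 2 of 3 tested at a mean of at least 10 CPM, against 708 of 5288 genes. With limma on log2(FPKM + 1) and on log2(FPKM + 0.1) it was 0 of 6 tested, against 245 of 8245 genes in each. With FPKM divided by median-of-ratios size factors, limma on log2(FPKM + 1) called 5 of 6 members higher, against 696 of 8160 genes. The Tgtp sum under that setting was 0.83 (limma adjusted p = 0.0156). Size factors were not used with log2(FPKM + 0.1), and the cause of the difference between the limma fits was not tested. The count of members stayed at 7 with median-of-ratios size factors, DESeq2, no filter and counts divided by 4, where 9 members were tested. Over all genes, those fits called 848 of 14797, 1133 of 14797, 937 of 26428 and 1014 of 11805 higher. The count over all genes that rose was 878, and it was 290 under library totals, 245 with limma at either pseudocount, and 455 to 691 without 1 library; the count that fell was 889, and 372 to 565 without 1 library. Of all calls 49.7% were higher, and 23.7% under library totals. The summed Tgtp1 and Tgtp2 log2 fold change was 1.03, and it was 0.69 under library totals (edgeR adjusted p = 0.149), 0.57 and 0.67 with limma at pseudocounts of 1 and 0.1 (adjusted p = 0.0948 and 0.0872), and 0.76 to 1.18 without 1 library. The cause of the differences without 1 library was not tested.

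Same-numbered libraries did not deviate together (correlations of 0.0276, -0.0398 and 0.000329), so the replicate numbers were not read as pairs. With the replicate block, 6 of 10 members rose, and of 14797 genes 770 rose and 699 fell. The summed Tgtp value was 1.00. Among 272 list counts under alternatives, 211 were within 1.5 times of the main count. At about 3 read pairs a library, depth limits Gbp5.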
